A study of Rattus norvegicus with 20 samples.

Results

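Hif1a, Vegfa, Edn1 and Nos3 are 4 genes of oxygen sensing and vessel tone. They were taken by their Ensembl IDs (ENSRNOG00000008292, ENSRNOG00000019598, ENSRNOG00000014361 and ENSRNOG00000009348), 4 of the 30452 rows of the count table. The messenger RNA of 20 heart samples from male rats was read, as 5 libraries each of right ventricle (RV) after monocrotaline, RV after saline, left ventricle (LV) after monocrotaline and LV after saline. Monocrotaline (MCT), a toxin from plants, damages the vessels of the lung and serves as a model of pulmonary hypertension, which loads the RV. The MCT rats were given 60 mg/kg and the others saline solution, all at a weight of 250 g. The labels set the end point at a discomfort score of 7 or more. They state no strain, age or number of days from injection to death, and they name whole ventricles with the atria removed. No genotype or further agent is named for any group.

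Cells sense low oxygen through the transcription factor subunit made from Hif1a, whose protein is broken down while oxygen is plentiful. The subunit is therefore controlled mainly at the protein level, and its messenger need not follow its activity. Vegfa encodes vascular endothelial growth factor A, a secreted signal for vessel growth and a well-known target of this factor, made in the heart largely by cardiomyocytes. Edn1 encodes the precursor of endothelin-1, a strong vessel constrictor, and Nos3 encodes endothelial nitric oxide synthase, which makes the vessel dilator nitric oxide. In heart both are known mainly from the endothelium. In tissue samples such as these, fewer cells of a type and less RNA per cell cannot be told apart.

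The stretches around the RefSeq starts of Edn1 and Vegfa are shown because these 2 genes gave the largest fold changes described below. Each holds 250 bases before and 50 after the annotated start, from the RefSeq table of build GRCr8. The Edn1 window lies at chr17:22666638-22666937 on the minus strand, and the main Vegfa window at chr9:22452604-22452903 on the plus strand. Capitals mark the core letters bound by hypoxia-inducible factors (ACGTG or GCGTG, either strand) in Edn1, and the GC box GGGCGG in Vegfa:
Edn1: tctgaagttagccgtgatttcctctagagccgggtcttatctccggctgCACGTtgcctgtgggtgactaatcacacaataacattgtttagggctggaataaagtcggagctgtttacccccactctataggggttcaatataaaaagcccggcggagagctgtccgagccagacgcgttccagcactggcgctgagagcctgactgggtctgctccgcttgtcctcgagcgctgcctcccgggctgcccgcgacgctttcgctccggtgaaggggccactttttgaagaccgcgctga
Vegfa: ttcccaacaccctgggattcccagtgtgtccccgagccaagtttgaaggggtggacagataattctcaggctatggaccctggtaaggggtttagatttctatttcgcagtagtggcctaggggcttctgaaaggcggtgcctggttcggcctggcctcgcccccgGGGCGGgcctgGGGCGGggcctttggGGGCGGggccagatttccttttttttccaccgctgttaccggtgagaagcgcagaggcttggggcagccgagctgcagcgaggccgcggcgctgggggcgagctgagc

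With the start as base 1, the Edn1 window held 1 core match, on the minus strand from -201 to -197. It also held the TATA box letters TATAAA from -110 to -105. The Hif1a window held 3 core matches, of which 2 are both strands of the same overlapping palindrome. The Nos3 window and both Vegfa windows held 0. Letters outside these windows were not searched, so a count of 0 does not mean that a gene lacks such a site. Of all 33469 windows of 300 bases, 41.6% held a core match, 33.1% a GC box and 14.2% the TATA letters, on either strand. The main Vegfa window held 3 GC boxes, the Hif1a window 2, the Nos3 window 1 and the Edn1 window 0. GC content was 73.7% in Hif1a, 63.3% in the main Vegfa window, 63% in Nos3 and 57.3% in Edn1, against a median of 51.7% over all windows. A match is a description of these letters only, and the libraries read transcript ends, which say nothing of where transcription began.

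Library totals ran from 3272420 to 9227104 counts. A level is given in CPM, a gene's counts scaled to a fixed library size, after TMM scaling, which corrects library sizes for a few genes that take many counts. The 10 most abundant genes took from 25.7% to 50.2% of a library, and the TMM factors ran from 0.788 to 1.32. On the first principal component, which held 32.0% of the variance, the saline libraries scored from -31.0 to -9.61. RV MCT replicate 4, at -30.3, and LV MCT replicate 3, at -21.0, lay among them, while the other MCT libraries lay above. Log2 values of a comparison that moved by over 1.5 times without either library are given with and without it. Group means and SDs are given with all libraries only. The labels carry date-like codes, in May or June for 3 libraries a group and in November for the rest. They do not say what was done on those dates. No May or June date occurs in both MCT and saline libraries, and the November dates are only partly shared. Grouping by month, as done below, therefore does not separate the exact date from treatment. The reference table used here held no Ensembl IDs to match the other rows to gene symbols, so neither the ventricle and cell type markers nor the other genes of these pathways were checked here.

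All 4 genes passed the filter on low counts. Read counts per library ran from 329 to 1072 for Vegfa, 39 to 263 for Hif1a, 12 to 196 for Edn1 and 20 to 77 for Nos3. Counting error alone was therefore at most 5.51% of the value for Vegfa and 16.01% for Hif1a. It reached 28.9% for Edn1, in the library with 12 reads, and 22.4% for Nos3. By group, the expected counting error was 10.8% to 14.3% of the mean for Edn1, where the SD was 33.3% to 45.0%. For Nos3 it was 16.3% to 17.4%, where the SD was 13.7% to 39.3%. Small differences in these genes were therefore not detectable here, for Edn1 mostly through the spread among libraries and for Nos3 through counting error as well.

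None of the 4 genes passed the test for MCT against saline in either ventricle (edgeR quasi-likelihood test, Benjamini-Hochberg adjusted p under 0.05 over 10929 genes). By this rule 0.274% of all genes were called for the RV and 9.52% for the LV. The libraries of the groups overlapped for every one of the 4 genes in both ventricles. Over all genes, groups that do not overlap made up 2.38% in the RV and 7.04% in the LV. At an unadjusted p under 0.05 edgeR gave 0 of the 4 genes in the RV, where 17.5% of all genes passed, and 1 in the LV, where 25.3% did. That gene was Vegfa. DESeq2 called 0 of the 4 in both ventricles, against 3.68% of all genes in the RV and 13% in the LV. Limma voom with quality weights called 0 in the RV, with Edn1 at an unadjusted p of 0.0404, and 1 in the LV, again Vegfa. Its shares of all genes at an adjusted p under 0.05 were 2.52% and 26.6%, and its shares at an unadjusted p under 0.05 were not counted.

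**Figure D1:**
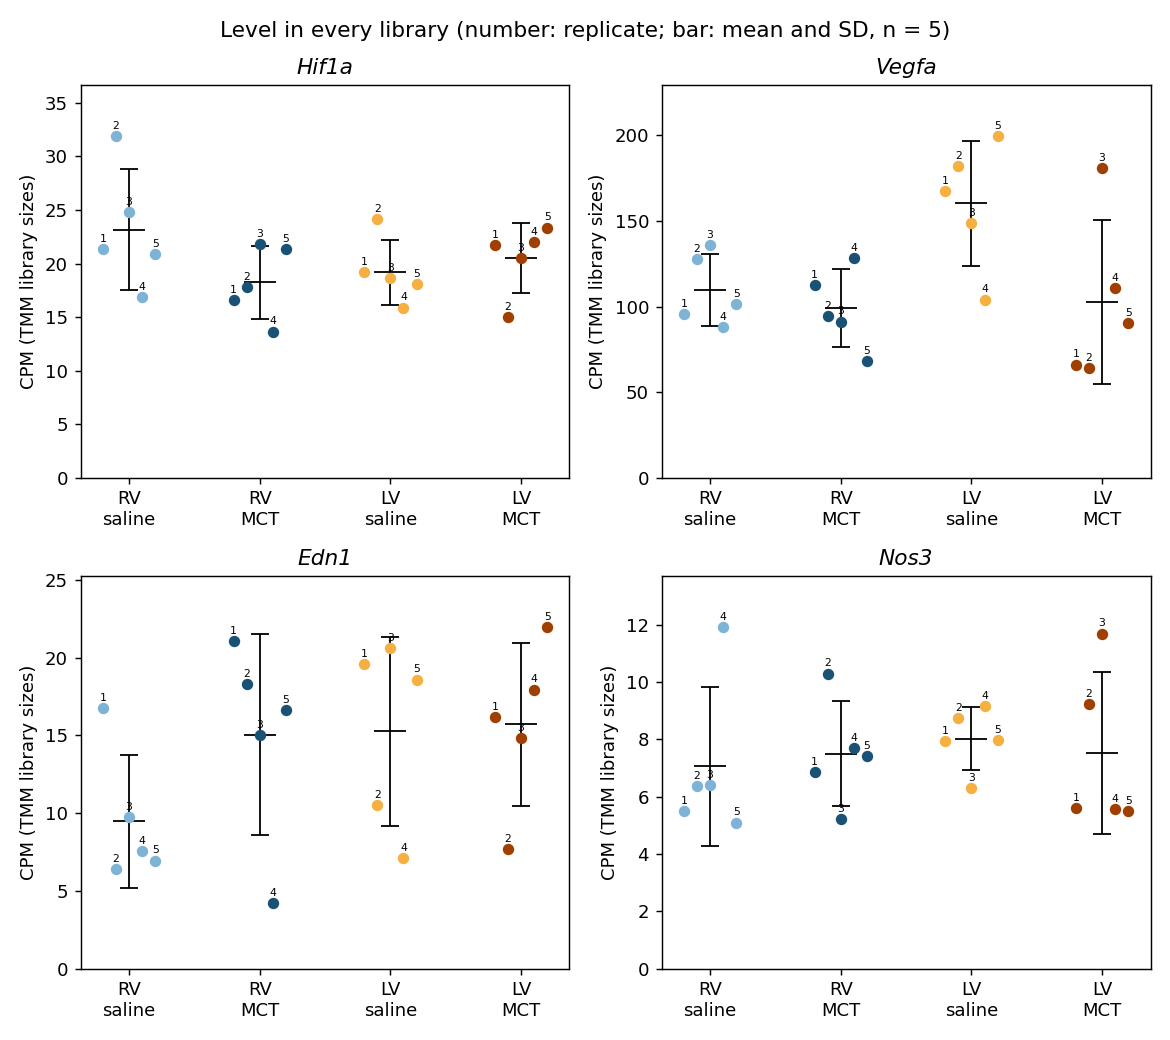
CPM of Hif1a, Vegfa, Edn1 and Nos3 (y axes, linear from 0) in each library of the 4 groups; points are libraries numbered by replicate, and bars give the mean and SD (n = 5). Vegfa in LV saline is mostly above the other groups, LV MCT replicate 3 sits at 181 CPM, and Edn1 in RV MCT replicate 4 sits at 4.20 CPM.

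Hif1a, the oxygen-controlled subunit, ran from 13.7 to 31.9 CPM over the 20 libraries. In RV MCT replicates 1 to 5 it was at 16.6, 17.8, 21.8, 13.7 and 21.3 CPM. In RV saline it was at 21.3, 31.9, 24.8, 16.8 and 20.9 CPM. RV MCT replicates 1 and 4 lay below every RV saline library, and the others lay among them. The group means were 18.2 ± 3.40 CPM after MCT and 23.1 ± 5.64 CPM after saline (SD, n = 5). The log2 fold change was -0.32 (SE 0.18, 95% interval -0.70 to 0.05, edgeR adjusted p = 0.367). It was -0.24 without RV MCT replicate 4 and -0.19 without RV saline replicate 2, the highest Hif1a library (edgeR adjusted p = 0.454 and 0.698). Within the November codes it was -0.089, and by total counts alone -0.16, or -0.31 relative to the median of all genes under that scaling.

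In LV MCT replicates 1 to 5 Hif1a was at 21.7, 15.0, 20.5, 22.0 and 23.4 CPM. In LV saline it was at 19.2, 24.2, 18.6, 15.9 and 18.1 CPM. Neither group stood apart: the lowest library was LV MCT replicate 2 and the highest LV saline replicate 2. The log2 fold change was 0.10 (SE 0.18, 95% interval -0.27 to 0.48, edgeR adjusted p = 0.779). The LV interval runs from 0.827 to 1.39 times the saline level. Its sign turned within the May and June codes, where the value was -0.13, and within November it was 0.41. The direct test of RV response minus LV response gave -0.43 for Hif1a on the log2 scale (95% interval -0.96 to 0.10), with an edgeR adjusted p of 1. That test called 0% of all genes.

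Vegfa, the secreted growth factor, had the largest LV difference of the 4 genes. In LV MCT replicates 1 to 5 it was at 66.1, 64.2, 181, 111 and 90.4 CPM. In LV saline it was at 167, 182, 149, 104 and 199 CPM. LV MCT replicates 1, 2 and 5 lay below every LV saline library, while replicate 3 lay among the highest saline libraries and replicate 4 just above the lowest one. The means were 102 ± 47.9 CPM after MCT and 160 ± 36.6 CPM after saline (SD, n = 5). The log2 fold change was -0.65 (SE 0.25, 95% interval -1.17 to -0.13, unadjusted p = 0.0166, edgeR adjusted p = 0.102), so Vegfa missed the threshold.

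The call for Vegfa in the LV differed between methods. Limma voom with quality weights gave -0.78 (adjusted p = 0.00382), in a fit that called 26.6% of all genes. It kept all 20 libraries but weighted them unequally, so method and single libraries cannot be told apart in this call. With edgeR the call turned on LV MCT replicate 3, the library that lay among the saline libraries on the first component. Without it the log2 fold change was -0.95 (edgeR adjusted p = 0.00701), in a fit that called 15.2% of all genes. Leaving out any other LV library kept the adjusted p between 0.0722 and 0.219. LV MCT replicate 3 had the lowest TMM factor of its group, 0.788, where the other 4 ran from 1.08 to 1.32 and the LV saline libraries from 0.815 to 0.934. Scaled by total counts alone, an alternative added after the data were seen, the value was -0.37 (edgeR adjusted p = 0.208). That scaling moved the median of all genes to 0.39 in the LV, and relative to it Vegfa was at -0.76. The part of the scaling in the result was not tested. Within the May and June codes the value was -0.72 and within November -0.59 (edgeR adjusted p = 0.395 and 0.386).

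In RV MCT replicates 1 to 5 Vegfa was at 112, 94.5, 91.2, 128 and 68.2 CPM. In RV saline it was at 95.4, 128, 136, 88.0 and 101 CPM. These groups largely covered the same range, with RV MCT replicate 5 lowest. The means were 99.0 ± 22.8 and 110 ± 21.0 CPM (SD, n = 5), and the log2 fold change was -0.15 (SE 0.25, 95% interval -0.67 to 0.37, edgeR adjusted p = 0.836). Without RV MCT replicate 4 it was -0.26 (edgeR adjusted p = 0.604), and within the November codes the sign turned, at 0.048. RV response minus LV response was 0.50 for Vegfa (95% interval -0.23 to 1.23, edgeR adjusted p = 1). Without LV MCT replicate 3 it was 0.80 (SE 0.30, unadjusted p = 0.0141, edgeR adjusted p = 0.886). Neither value passed the threshold over all genes.

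**Figure D2:**
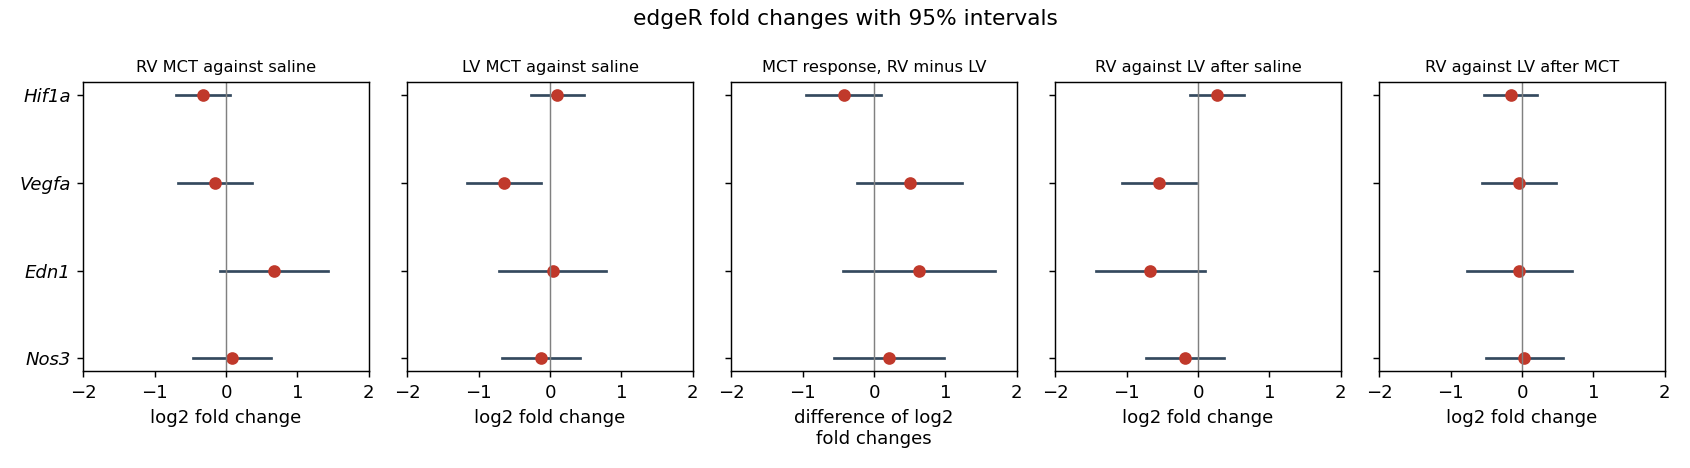
Log2 fold changes (x axes; points) with 95% intervals (lines) from edgeR for the 4 genes in the 5 comparisons, where the middle panel is the RV response minus the LV response. Intervals left out 0 only for Vegfa, for MCT in the LV (-1.17 to -0.13) and for RV against LV after saline (-1.07 to -0.03). Neither passed adjustment over all genes, and both use the same LV saline libraries.

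Edn1, the source of the constrictor endothelin-1, had the largest RV fold change of the 4 genes and the widest spread. In RV MCT replicates 1 to 5 it was at 21.1, 18.3, 15.0, 4.20 and 16.6 CPM. In RV saline it was at 16.8, 6.38, 9.74, 7.57 and 6.95 CPM. A single library of each group ran against the rest. RV MCT replicate 4, with 12 Edn1 reads (exact Poisson 95% interval 6.20 to 21.0, counting error only), lay below all RV saline libraries. RV saline replicate 1, with 125 reads, lay among the MCT libraries. The other 4 MCT libraries lay above the other 4 saline libraries. Both exceptions were picked out by their own Edn1 values, which favours such a split, so it is no support for a difference. With all libraries of both groups, an exact two-sided permutation test gave an unadjusted p of 0.238.

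The Edn1 means were 15.1 ± 6.46 CPM after MCT and 9.48 ± 4.27 CPM after saline in the RV (SD, n = 5). The log2 fold change was 0.67 (SE 0.36, 95% interval -0.09 to 1.42, edgeR adjusted p = 0.356), above the threshold. It was 0.88 without RV MCT replicate 4 (edgeR adjusted p = 0.0974) and 1.0001 without RV saline replicate 1 (edgeR adjusted p = 0.191). Every one of the 22 alternatives tried gave a value above 0, from 0.53 to 1.0001, and the lowest adjusted p among them was 0.0965. Most of these alternatives refit nearly the same libraries, so their shared sign is no independent support.

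In LV MCT replicates 1 to 5 Edn1 was at 16.2, 7.69, 14.8, 17.9 and 22.0 CPM. In LV saline it was at 19.6, 10.5, 20.6, 7.10 and 18.6 CPM. High and low libraries occurred in both groups. The means were 15.7 ± 5.24 and 15.3 ± 6.08 CPM (SD, n = 5), with a log2 fold change of 0.04 (SE 0.36, 95% interval -0.71 to 0.78, edgeR adjusted p = 0.964). The sign turned under several alternatives, among them the May and June codes alone, at -0.43 (SE 0.37). Within November the value was 0.64 (SE 0.53), on the other side of 0, and neither passed the threshold. RV response minus LV response was 0.63 (95% interval -0.43 to 1.69, edgeR adjusted p = 1). It was 1.12 within the May and June codes (SE 0.52, unadjusted p = 0.047, edgeR adjusted p = 0.999) and -0.044 within November, and 0.99 without RV saline replicate 1.

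**Figure D3:**
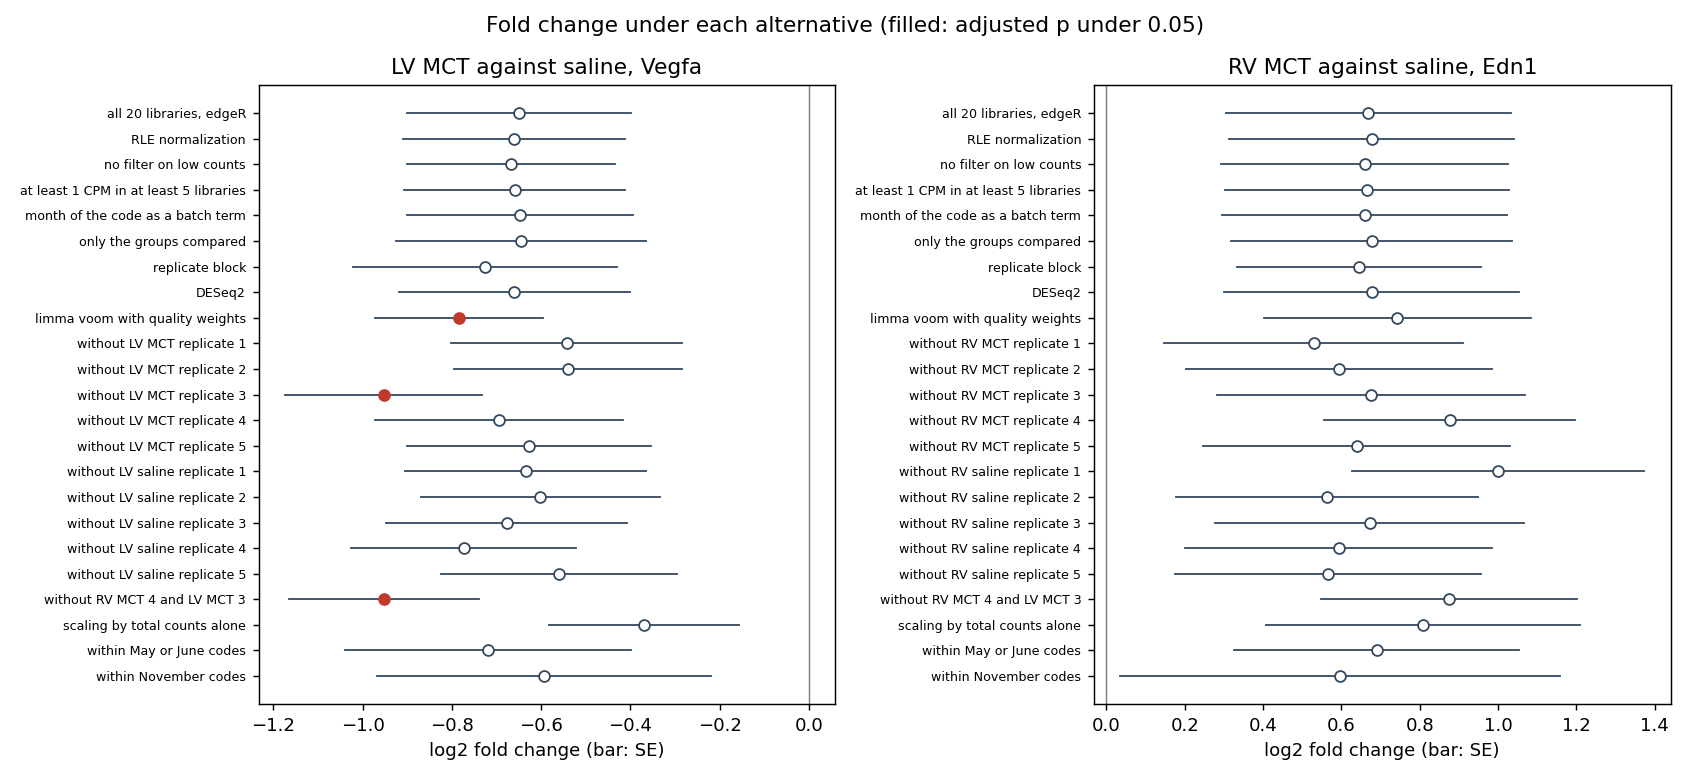
Log2 fold change (x axes; bars are the SE) of Vegfa for MCT in the LV and of Edn1 for MCT in the RV under each alternative setting; filled points had an adjusted p under 0.05. Every Vegfa point is below 0, from -0.95 to -0.37, and every Edn1 point is above 0, with filled points for Vegfa with limma voom and without LV MCT replicate 3 (alone or together with RV MCT replicate 4).

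Nos3, the endothelial nitric oxide synthase, was close to level between groups on average. In RV MCT replicates 1 to 5 it was at 6.87, 10.3, 5.22, 7.70 and 7.42 CPM. In RV saline it was at 5.50, 6.38, 6.40, 11.9 and 5.10 CPM. RV saline replicate 4 lay far above the rest of its group, which otherwise covered the lower part of the MCT range. The log2 fold change was 0.09 (SE 0.26, 95% interval -0.46 to 0.63, edgeR adjusted p = 0.922). It was 0.37 without RV saline replicate 4 and -0.07 without RV MCT replicate 2, so its direction turned on single libraries.

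In LV MCT replicates 1 to 5 Nos3 was at 5.61, 9.23, 11.7, 5.57 and 5.50 CPM. In LV saline it was at 7.95, 8.75, 6.29, 9.16 and 7.97 CPM. LV MCT replicates 1, 4 and 5 lay below all LV saline libraries and replicates 2 and 3 above all of them, so the MCT libraries fell on both sides of the saline range. The SD was 2.82 CPM after MCT and 1.10 CPM after saline (n = 5). The log2 fold change was -0.13 (SE 0.26, 95% interval -0.67 to 0.42, edgeR adjusted p = 0.81). It was -0.32 without LV MCT replicate 3, -0.049 without replicate 1, -0.046 without replicate 4 and -0.38 with limma voom (adjusted p = 0.165). RV response minus LV response was 0.22 (95% interval -0.55 to 0.99, edgeR adjusted p = 1), and 0.41 without LV MCT replicate 3.

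RV and LV were next set against each other. After saline 0 of the 4 genes passed (edgeR, adjusted p under 0.05), where 0.0732% of all genes were called. At an unadjusted p under 0.05 there was 1, Vegfa, where 8.32% of all genes passed. DESeq2 and limma voom also called 0 of the 4, against 0.805% and 1.14% of all genes, with adjusted p of 0.46 and 0.10 for Vegfa. Limma voom gave 2 of the 4 at an unadjusted p under 0.05, Vegfa and Edn1. The share of all genes past that cutoff was not counted for limma voom, so these 2 cannot be set against it. The RV and LV libraries overlapped for each of the 4 genes, where 3.36% of all genes did not overlap. The log2 value of RV against LV was -0.55 for Vegfa (SE 0.25, 95% interval -1.07 to -0.03, unadjusted p = 0.0392, edgeR adjusted p = 0.57). Edn1 was at -0.67 (SE 0.37, 95% interval -1.43 to 0.09, edgeR adjusted p = 0.672). It was -1.01 without RV saline replicate 1 (unadjusted p = 0.0141, edgeR adjusted p = 0.534) and -0.87 with limma voom (unadjusted p = 0.00864, adjusted p = 0.176). Hif1a was at 0.27 (95% interval -0.11 to 0.64, edgeR adjusted p = 0.777) and Nos3 at -0.19 (95% interval -0.74 to 0.36, edgeR adjusted p = 0.938). Without RV saline replicate 2 the Hif1a value was 0.13, and without RV saline replicate 4 the Nos3 value was -0.47.

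The RV and LV libraries of a treatment carry the same numbers and date-like codes, but the labels do not say that a number is 1 animal. After saline, Vegfa was higher in the LV library of all 5 same-numbered pairs, by 0.13 to 0.98 on the log2 scale. Hif1a was higher in the RV library of all 5 pairs, by 0.09 to 0.41. Of all genes, 15.5% had all 5 of these pairs in 1 direction after saline. Edn1 was higher in the LV library of 4 pairs, and Nos3 in that of 3. After MCT, where 2.44% of all genes had all 5 pairs in 1 direction, 0 of the 4 did: Vegfa was higher in the RV library of 3 pairs, Hif1a of 2, Edn1 of 3 and Nos3 of 4.

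**Figure D4:**
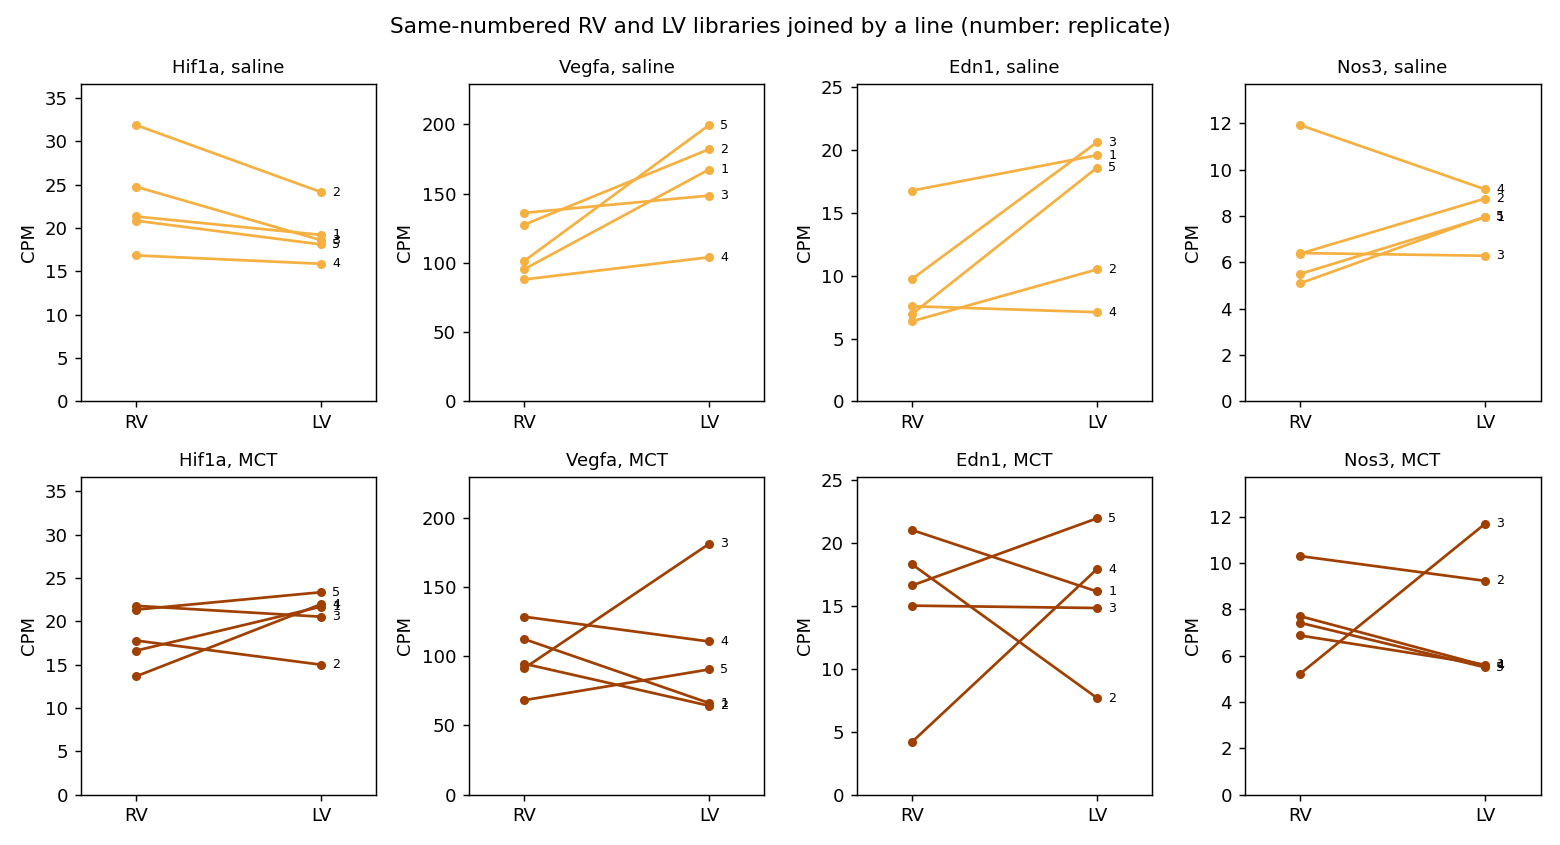
CPM (y axes, linear from 0) of each gene in the RV and LV libraries that share a replicate number, joined by a line, with saline above and MCT below. After saline all 5 Vegfa lines go up from RV to LV and all 5 Hif1a lines go down; after MCT lines of both directions occur for every gene.

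After MCT 0 of the 4 genes passed between RV and LV (edgeR), where 0% of all genes were called, and at an unadjusted p under 0.05 there were 0 as well, against 1.86% of all genes. DESeq2 and limma voom called 0 of the 4 and 0% of all genes. The RV and LV libraries overlapped for each of the 4, where 0.11% of all genes did not. The log2 values were -0.16 for Hif1a (95% interval -0.53 to 0.21), -0.05 for Vegfa (-0.57 to 0.47), -0.04 for Edn1 (-0.78 to 0.70) and 0.03 for Nos3 (-0.51 to 0.57). Their edgeR adjusted p was 1 for each. Without LV MCT replicate 3 Vegfa was at 0.25 and Nos3 at 0.22. Without RV MCT replicate 4 Hif1a was at -0.079, Vegfa at -0.16 and Edn1 at 0.17, all again with an adjusted p of 1. For Vegfa, Edn1 and Nos3 the intervals leave room for their values after saline, though for Vegfa and Edn1 only narrowly. For Hif1a the interval ends at 0.21, below its value of 0.27 after saline, which itself did not pass. That saline value had an interval of its own, -0.11 to 0.64, so it is not excluded after MCT. The direct test of this difference is RV response minus LV response, at -0.43 for Hif1a (95% interval -0.96 to 0.10), which did not pass. With intervals this wide, the ventricles are not shown to be alike.

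By group mean, Vegfa stood in the order LV saline (160 CPM), RV saline (110 CPM), LV MCT (102 CPM) and RV MCT (99.0 CPM), of which the last 3 differed by less than their SDs. Edn1 stood in the order LV MCT (15.7 CPM), LV saline (15.3 CPM), RV MCT (15.1 CPM) and RV saline (9.48 CPM), of which the first 3 differed by less than their SDs. Hif1a ran from RV saline (23.1 CPM) over LV MCT (20.5 CPM) and LV saline (19.2 CPM) to RV MCT (18.2 CPM). Nos3 ran from LV saline (8.02 CPM) over LV MCT (7.52 CPM) and RV MCT (7.50 CPM) to RV saline (7.06 CPM). Neighbours in the Hif1a and Nos3 orders differed by less than 1 SD. The Vegfa values for MCT in the LV and for RV against LV after saline share the LV saline libraries. Those of Edn1 for MCT in the RV and for RV against LV after saline share the RV saline libraries. Neither pair of values is made of independent results.

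A ratio of 2 genes within a library does not depend on how libraries are scaled. Vegfa reads per Hif1a read numbered 4.00 to 5.49 in RV saline (median 4.86) and 6.55 to 11.01 in LV saline (median 7.99). These groups did not overlap, and every LV saline library lay above every RV saline library. With Hif1a as the common denominator, 2.24% of the other 10928 genes gave ratios that did not overlap between these groups. After MCT the ratio ran from 3.19 to 9.41 in the RV (median 5.32) and from 3.05 to 8.82 in the LV (median 4.28). The highest values there were those of RV MCT replicate 4 and LV MCT replicate 3, the libraries that lay among the saline ones on the first component. These ratios are a description and were not tested.

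Edn1 reads per Nos3 read, a constrictor gene over a dilator gene, had a median of 1.36 in RV saline and 2.24 in RV MCT, with ranges of 0.635 to 3.05 and 0.545 to 3.06. In the LV the median was 2.33 after saline and 2.88 after MCT, with ranges of 0.776 to 3.28 and 0.833 to 4.00. All 4 groups covered nearly the same span, with libraries below and above 1 in each.

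**Figure D5:**
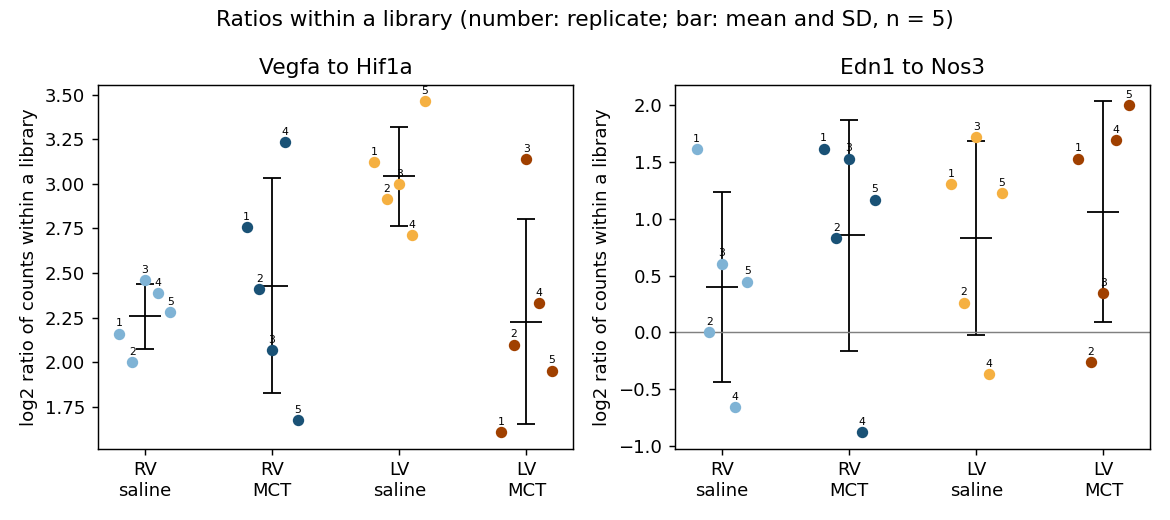
Log2 ratio of Vegfa to Hif1a counts and of Edn1 to Nos3 counts (y axes) in each library, with points numbered by replicate and bars for the mean and SD (n = 5). For Vegfa to Hif1a, RV saline ends at 2.46 below the lowest LV saline library at 2.71, while the groups overlap for Edn1 to Nos3.

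The 4 genes did not vary as a unit across the 20 libraries, which share groups, depth and possibly animals. The Pearson correlation of their log2 CPM was between -0.21 and 0.20 for 5 of the 6 pairs, Hif1a with Vegfa among them at 0.12 (Spearman 0.08). For Hif1a with Nos3 it was -0.45 (Spearman -0.53), -0.43 with group means removed, and -0.53 without the 2 libraries farthest from the median of Hif1a. With group means removed, Hif1a with Edn1 went from 0.17 to 0.38, Edn1 with Nos3 from -0.21 to -0.32 and Hif1a with Vegfa from 0.12 to 0.22. Other genes were ranked by the same correlation over the 20 libraries among 6890 genes. Vegfa had 28 genes at 0.8 or more, Edn1 2, Nos3 1 and Hif1a 0. The most alike were ENSRNOG00000058752 for Vegfa (0.92), ENSRNOG00000036598 for Edn1 (0.84), ENSRNOG00000045775 for Nos3 (0.82) and ENSRNOG00000019743 for Hif1a (0.73). These are the highest of many values and carry no test.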

How the data were processed

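The authors deposited raw counts of reads for each Ensembl gene, from QuantSeq libraries, which read transcript 3' ends. The submitters' processing notes name STAR 2.7.10a, HTSeq 0.11.3 and the builds mRatBN7.2 and rn6, without saying which served for what. Strand setting and annotation release were not given in these sources, so overlapping genes could share reads. The names of the 4 genes were supplied with their IDs. The members, lists and tests were chosen with earlier results of these data known. The lists of related genes and cell type markers could not be looked up, since the RefSeq table held 0 Ensembl IDs.

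All 20 columns were matched to a sample by their codes. The test was that of edgeR 4.0.16 under R 4.3.3 (TMM, filterByExpr, robust quasi-likelihood fit of 4 group means over 20 libraries, Benjamini-Hochberg over the 10929 genes kept, which held 99.8% of counts). Standard errors and 95% intervals came from the F statistic, and log2 CPM used a prior count of 2. The labels do not say that libraries of a group come from separate rats, so a p-value reflects only the spread among libraries, which may be technical. Replicate libraries all differed by more than sampling noise. Alternatives were RLE, other filters (none, or 1 CPM in 5 libraries), a month term, a replicate block and a fit of just the 2 groups. Others were DESeq2 1.42.0, limma 3.58.1 voom with quality weights, and leaving out each library. The named genes were the 4 members, and the most alike gene of each with a mean log2 CPM of at least 3. Motifs other than the hypoxia core were chosen after the sequences were seen.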

Additional observations from a re-analysis of the deposited data

Results flagged for a closer look

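Nos3 in RV saline replicate 4 was at 11.9 CPM, while the other RV saline libraries lay between 5.10 and 6.40 CPM. The distance from it to its nearest neighbour made up most of the spread of that group. Of 24 sets of 5 values looked at, 1 was picked out in this way, and chance picks about 1 in 20.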

How the results depend on the processing

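Apart from the 3 Vegfa calls named here, no alternative brought any of the 4 genes past the threshold in any of the 5 comparisons. Vegfa for MCT in the LV passed with limma voom with quality weights (-0.78), in a fit that called 26.6% of all genes. It also passed without LV MCT replicate 3 (-0.95), where 15.2% were called. The remaining call came without that library and RV MCT replicate 4 together (-0.95), where 18.1% were called. That joint setting was added after the data were seen. Leaving out 1 library gave -0.95 to -0.54. The other changes were turns of sign in values that never passed, for which the cause was not tested. With 1 library left out, the range was -0.069 to 0.37 for Nos3 in the RV and -0.16 to 0.19 for Edn1 in the LV. Between RV and LV after MCT it was -0.17 to 0.25 for Vegfa, -0.20 to 0.17 for Edn1 and -0.12 to 0.22 for Nos3.

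The settings added after seeing the data gave more such turns. Within November codes, MCT against saline in the RV was 0.048 for Vegfa and -0.16 for Nos3. The May and June codes gave -0.25 and 0.31 for these. RV response minus LV response was -0.044 for Edn1 within November. Within the May and June codes, MCT against saline in the LV was -0.13 for Hif1a, -0.43 for Edn1 and 0.15 for Nos3. The November codes gave 0.41, 0.64 and -0.63 for these 3 genes. RV against LV after MCT was 0.0026 for Hif1a, 0.51 for Edn1 and -0.18 for Nos3 within the May and June codes. Within November it was -0.35, -0.85 and 0.45. Without both libraries that stood apart it was 0.14 for Vegfa and 0.16 for Edn1. By total counts alone Nos3 in the LV was 0.19, and -0.20 relative to the median of all genes, which that scaling moved by over 0.1 in 4 of 5 comparisons.

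The replicate block joined same-numbered RV and LV libraries of a treatment where ventricles were compared. For MCT against saline it joined same-numbered MCT and saline libraries, whose codes mostly differ and which the labels do not pair. With the block, RV against LV after MCT turned to 0.033 for Vegfa, and no call changed. The Vegfa value for MCT in the LV was -0.73 (edgeR adjusted p = 0.191) and after saline the RV against LV value was -0.54 (edgeR adjusted p = 0.507). Same-numbered libraries did not all deviate together: correlations of deviations ran from -0.18 to 0.59 for RV and LV after saline and from -0.35 to 0.24 after MCT. Those of MCT and saline libraries lay between -0.23 and 0.21 (RV) and between -0.32 and 0.22 (LV). After saline, 3 of the 5 RV libraries correlated most with the LV library of their own number, and after MCT 1 did. Between MCT and saline libraries this held for 0 in the RV and 1 in the LV. In an exact two-sided permutation test of 5 against 5 libraries, run for each gene in 4 comparisons (16 tests), the smallest p values were 0.0317 for Vegfa between RV and LV after saline and 0.0714 for Vegfa after MCT in the LV. The smallest this design allows is 0.00794, and none was adjusted. Low counts together with the spread among libraries of a group for Nos3, and mostly that spread for Edn1, limit what could be seen for them.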
